A study of Mus musculus with 39 samples.

Results

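The genes described here are 6 ligands and 4 receptors of the fibroblast growth factor (FGF) family, Fgf3, Fgf4, Fgf5, Fgf8, Fgf15, Fgf17, Fgfr1, Fgfr2, Fgfr3 and Fgfr4. They were chosen by name, as family members with a known place in the early mouse embryo, but with earlier results of these data known. They make up 10 of the 47643 genes in the count tables. The study asked what happens to the epiblast, the tissue that forms the embryo proper, when it lacks STAT3, the transcription factor that relays signals from leukaemia inhibitory factor and related cytokines. Bulk RNA-seq was made from 35 single epiblasts, each freed by hand of extraembryonic ectoderm and visceral endoderm, at embryonic day 5.5 (E5.5, 4 null and 2 WT), 6.5 (8 null and 9 WT) and 7.5 (3 null and 9 WT), and from 4 cultured epiblast stem cell (EpiSC) lines, 2 null and 2 WT. All embryos came from matings between Stat3 heterozygous mice of the CD1 background, so null and WT epiblasts developed in the same kind of mother, and the genotype was read from the extraembryonic part of each embryo. In the null allele a neomycin resistance cassette takes the place of exons that encode the SH2 and transactivation regions, and the rest of the gene remains. The EpiSC lines grew on fibronectin in N2B27 medium with FGF2, Activin A and the WNT pathway inhibitor XAV-939, so FGF was supplied from outside, and their libraries were made with another kit than those of the epiblasts. EpiSC levels are therefore given on their own scale.

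FGFs are secreted proteins that bind, with heparan sulfate as a cofactor, to receptor tyrosine kinases at the cell surface. The receptor then recruits FRS2 and GRB2 and switches on the RAS to ERK cascade, and ERK raises feedback genes of the Sprouty, Spred and Dusp families and ETS factors of the Etv4 and Etv5 group. In the embryo around implantation Fgf4 from the epiblast keeps the trophoblast proliferating through Fgfr2, Fgf5 marks the epiblast after implantation, and Fgf8 and Fgfr1 are needed for cells to move through the primitive streak at gastrulation. Fgf3 and Fgf17 are made in the streak and nascent mesoderm, Fgf15 is the mouse counterpart of human FGF19, and Fgfr3 and Fgfr4 are receptors with narrower expression, Fgfr4 being prominent in endoderm.

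Levels are counts divided by the effective library size that edgeR gives, in CPM. The epiblast libraries held 22941210 to 79013960 counts and the EpiSC libraries 63445877 to 127583699. A gene was called changed where an edgeR quasi-likelihood test gave an adjusted p (Benjamini-Hochberg, over all genes tested) under 0.05 and a log2 fold change over 1 in size. Stat3 itself was counted over the whole gene with the exons that the null allele keeps. It was 1.22 to 1.50 CPM in the 3 E7.5 null libraries against 4.63 to 24.3 in the 9 E7.5 WT libraries. In the EpiSC lines it was 3.14 and 3.52 CPM (null) against 18.1 and 22.9 CPM (WT). It was also lower at E5.5 (9.33 to 22.7 against 39.2 and 51.1 CPM), while at E6.5 the 2 ranges overlapped (1.43 to 8.10 in null and 5.66 to 28.9 in WT).

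A few libraries stood apart from the others of their group. E5.5 null 1 held 0.662 CPM of Pou5f1, the defining transcription factor of the epiblast, against 99.3 CPM or more in every other epiblast library. Its 6 epiblast markers summed to 1364 CPM, within the range of the other E5.5 libraries, but only 4 of them were counted, Nanog and Otx2 being at 0. Its 10 extraembryonic ectoderm markers summed to 1097 CPM. E6.5 null 1 held 995 CPM of the same markers. Among the other epiblast libraries that sum was 47.3 to 390 CPM at E5.5, 7.95 to 57.8 at E6.5 and 5.46 to 43.5 at E7.5. The sum of 10 visceral endoderm markers was 5248 to 10768 CPM in the E5.5 libraries other than null 1, 47.6 to 6132 at E6.5, 35.7 to 239 in E7.5 null and 384 to 4027 in E7.5 WT, with 10 of 10 markers counted in every epiblast group. E7.5 WT 3 had levels of most FGF genes near those of E6.5, though its Fgf4 (1.88 CPM) was below every E6.5 WT library (5.25 CPM or more). It held 1770 CPM of 6 epiblast markers, against 582 to 1083 CPM in the other E7.5 WT libraries and 1452 to 1901 CPM in E7.5 null. Its 7 neuroectoderm markers summed to 14.2 CPM, against 49.3 to 113 and 14.8 to 20.7 CPM. The labels of E7.5 WT 3 and of E5.5 null 1 were taken as given. Maternal blood and decidua markers summed to 0.110 to 27.4 CPM over all epiblast libraries. The sum of 10 streak and mesoderm markers was 469 to 803 CPM in E7.5 null and 166 to 442 in E7.5 WT, and 105 to 685 CPM at E6.5. At E5.5 it was already 447 to 660 CPM in null and 370 to 461 in WT. Mesp1 was at 0 in every E5.5 library and T in every E5.5 null library. A high sum is therefore not particular to stages with a streak. The study reported lower levels of selected streak genes in E7.5 null. Counts of calls and fold changes that move with these libraries are also given without them. E7.5 WT 3 was singled out partly for its levels of the FGF genes themselves, so values without it describe the other libraries, lean towards a difference and are no independent support. In bulk tissue, fewer cells of a type and less RNA of a gene per cell cannot be told apart.

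The sequence upstream of the start was available for 6 of the 10 genes in the RefSeq promoter table for GRCm38.p6 (7 windows, since Fgfr3 has a pair of starts). The windows of the 4 genes with the widest gaps between E7.5 null and WT epiblasts are shown as the 250 bases before the start, 5′ to 3′ on the strand of the gene, with capitals for GGGCGG on either strand, the motif known as the GC box.
Fgf5 (chr5:98253934-98254183, plus strand): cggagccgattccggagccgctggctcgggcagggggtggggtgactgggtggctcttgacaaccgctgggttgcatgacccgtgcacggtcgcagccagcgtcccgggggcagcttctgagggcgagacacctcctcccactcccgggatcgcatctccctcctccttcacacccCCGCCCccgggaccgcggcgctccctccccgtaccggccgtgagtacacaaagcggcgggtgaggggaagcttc
Fgfr2 (chr7:130266809-130267058, minus strand): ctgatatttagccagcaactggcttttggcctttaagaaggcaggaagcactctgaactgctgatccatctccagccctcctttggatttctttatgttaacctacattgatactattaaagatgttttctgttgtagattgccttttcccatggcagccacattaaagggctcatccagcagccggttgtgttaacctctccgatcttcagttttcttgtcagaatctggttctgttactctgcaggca
Fgfr3, first start (chr5:33721474-33721723, plus strand): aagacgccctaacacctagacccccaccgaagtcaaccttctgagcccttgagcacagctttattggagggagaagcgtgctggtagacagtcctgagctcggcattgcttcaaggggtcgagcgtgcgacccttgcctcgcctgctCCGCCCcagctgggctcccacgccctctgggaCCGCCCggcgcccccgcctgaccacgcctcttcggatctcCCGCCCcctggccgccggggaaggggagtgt
Fgfr4 (chr13:55152568-55152817, plus strand): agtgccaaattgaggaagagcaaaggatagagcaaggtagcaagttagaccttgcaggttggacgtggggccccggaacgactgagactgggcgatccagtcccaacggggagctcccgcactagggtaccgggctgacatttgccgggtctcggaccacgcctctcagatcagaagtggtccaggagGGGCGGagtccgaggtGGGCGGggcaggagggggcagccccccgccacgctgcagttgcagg
The Fgfr2 window holds no GC box and is shown for contrast. GC boxes were found in 5 of the 7 windows of FGF genes (Fgf4, Fgf5, both starts of Fgfr3 and Fgfr4) and in 32.7% of all 32851 RefSeq windows of that length. TTCNNNGAA, the palindrome that STAT dimers recognise, was in none of the 7 windows and in 7.02% of all windows, and TATAAA was in none of the 7 and in 12.4% of all. The Fgfr2 window was the poorest in CG pairs of the 7, with 2, and the Fgf5 and second Fgfr3 windows the richest, with 24, where the median window holds 6. A match or its absence describes these letters only, in these windows only.

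Fgf5 was on average the most abundant of the 6 ligand mRNAs per length in every group but E7.5 WT. It was 98.8 and 138 CPM in the 2 E5.5 WT libraries, and 90.1, 121 and 126.5 CPM (lowest, median and highest of 9) in E6.5 WT. In E7.5 WT it was 2.64 CPM at the lowest, 6.18 at the median and 158 at the highest, the highest being WT 3 and the other 8 reaching at most 8.28. In null epiblasts it was 0, 99.1, 131 and 95.5 CPM in E5.5 null 1 to 4, the 0 being the library without Pou5f1, and 20.1, 122 and 144 CPM at E6.5, the lowest being null 1. At E7.5 the null libraries held 124, 137 and 79.2 CPM, so that all 3 lay in or near the E6.5 range and none came near the 8 low WT libraries. The EpiSC lines, which resemble the epiblast shortly before or during gastrulation, held 86.8 and 116 CPM (null) and 83.2 and 120.3 CPM (WT).

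Fgf4 was 41.5 and 59.7 CPM in E5.5 WT, 5.25, 13.1 and 95.5 CPM in E6.5 WT and 1.88, 7.02 and 10.8 CPM in E7.5 WT. Within E6.5 WT, libraries 1 to 4 stood at 25.9 CPM or above and 5 to 9 at 13.1 or below. The same libraries parted for Fgf8, 1 to 4 at 37.2 CPM or below and 5 to 9 at 65.6 or above, for the streak and mesoderm markers, with at most 174.5 CPM in the first and at least 397 in the second, and for the visceral endoderm markers, with at least 328 CPM in the first and at most 157 in the second. Libraries 1 to 3 were also the deepest of the group. Neither tissue content nor depth can be told apart from stage within this group. Null epiblasts held 0, 16.1, 45.0 and 35.8 CPM at E5.5, 1.84, 10.9 and 16.2 CPM at E6.5 and 4.39, 3.49 and 11.8 CPM at E7.5.

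Fgf8, the ligand that moves mesoderm out of the streak, was 57.7 and 61.6 CPM in E5.5 WT, 28.3, 65.6 and 81.5 CPM in E6.5 WT and 7.70, 15.5 and 42.9 CPM in E7.5 WT, WT 3 again being the highest. In null epiblasts it was 0, 40.03, 92.6 and 41.5 CPM at E5.5, 8.03, 45.1 and 167 CPM at E6.5 and 33.6, 52.7 and 20.9 CPM at E7.5. The single highest value, in E6.5 null 2, came with the highest Fgf17 of all libraries (24.2 CPM) and with 659 CPM of streak and mesoderm markers, the highest of the E6.5 null libraries, which ranged from 134 CPM upwards. Only 15531 genes had counts in E6.5 null 2, fewer than in any other epiblast library but E6.5 null 3 (15171).

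Fgf3 and Fgf17 were the scarce ligands. Fgf3 was 3.15 and 1.44 CPM in E5.5 WT, 0, 0.762 and 4.63 CPM in E6.5 WT and 0.463, 11.6 and 19.0 CPM in E7.5 WT, WT 3 being the lowest. Among null epiblasts it was at 0 in 3 of 4 libraries at E5.5 and in 7 of 8 at E6.5, null 7 alone holding 12 counts or 0.419 CPM, and then 2.39, 6.82 and 24.6 CPM at E7.5. Of the 9 E6.5 WT libraries 1 was at 0 and the other 8 held 9 to 278 counts. Fgf17 ranged from 0 to 24.2 CPM with a median of 4.85 in E6.5 WT, 1.998 in E6.5 null, 2.60 in E7.5 WT and 2.39 in E7.5 null, and its groups overlapped at every stage.

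Fgf15 was 22.4 and 23.3 CPM in E5.5 WT, 32.1, 40.1 and 60.7 CPM in E6.5 WT and 8.72, 12.2 and 29.3 CPM in E7.5 WT. In null epiblasts it was 0, 14.1, 18.5 and 15.1 CPM at E5.5, 11.2, 32.3 and 49.0 CPM at E6.5, and 36.6, 30.8 and 28.7 CPM at E7.5. The 4 E5.5 null libraries lay below both WT libraries, and at E7.5 the order was turned round, with 2 null libraries above every WT library and the third below WT 3 alone. Fgf3, Fgf4 and Fgf15 lie side by side on chromosome 7 (GRCm38), with 2930 bases between Fgf3 and Fgf4 and 31287 between Fgf4 and Fgf15, and their levels did not follow each other: from E6.5 to E7.5 in WT Fgf3 went up while both neighbours went down. Antisense genes overlap the exons of Fgf15, and genes of the opposite strand also overlap exons of Fgfr1 and Fgfr3. The strand setting of the counting is not given in the sources used here, so the counts of these genes are uncertain.

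**Figure D1:**
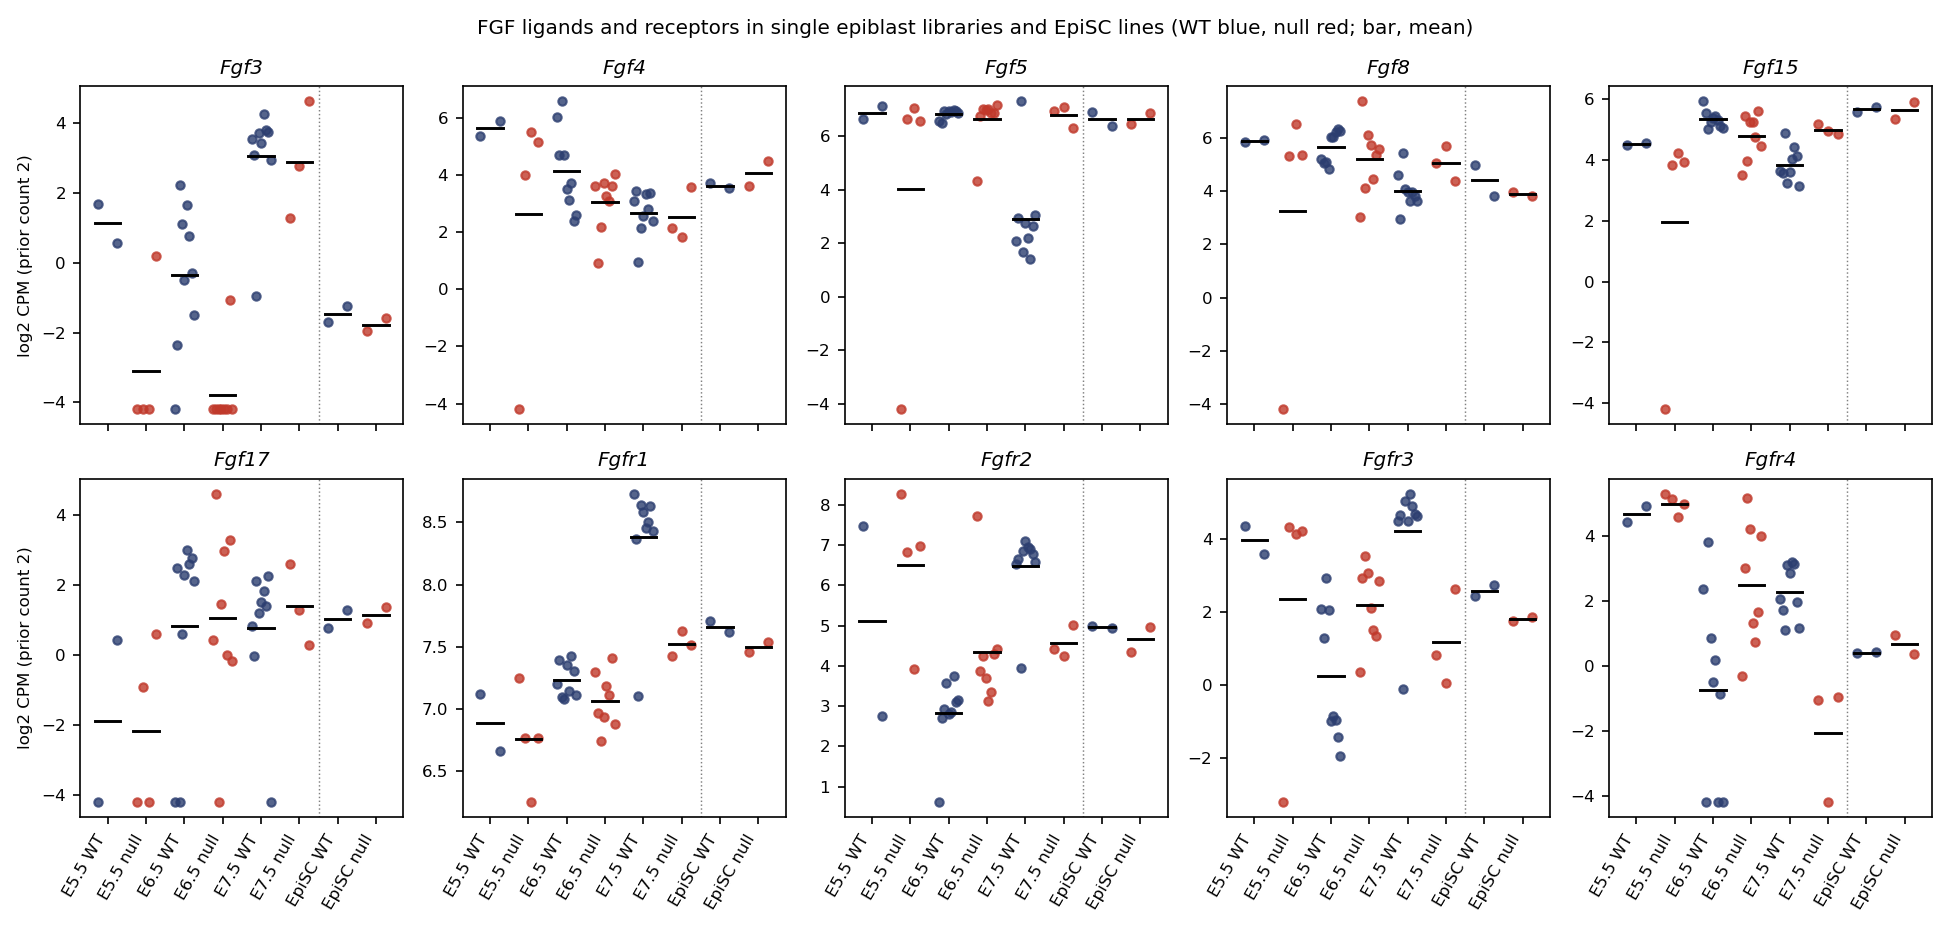
Level of each ligand and receptor in every library, as log2 CPM with a prior count of 2 (vertical axis, 1 point per library, black bar the mean of the group), for WT (blue) and Stat3 null (red) epiblasts of each stage and for the EpiSC lines right of the dotted line, which were scaled separately. In E7.5 WT 8 of 9 libraries are low for Fgf5 and high for Fgfr1, Fgfr2 and Fgfr3, and the ninth, WT 3, lies with E6.5; the lowest point of E5.5 null for 4 ligands is null 1.

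Fgfr1, the main receptor of the epiblast, was found in every library. It was 139 and 101.5 CPM in E5.5 WT, 135, 147 and 172 CPM in E6.5 WT and 137, 363 and 423 CPM in E7.5 WT, where WT 3 was the lowest and the next library stood at 330.1. Null epiblasts held 152, 109, 76.4 and 109 CPM at E5.5, 107, 132 and 170.5 CPM at E6.5 and 172, 197 and 183 CPM at E7.5. The 3 E7.5 null libraries were thus above or at the top of the E6.5 values and below 8 of the 9 E7.5 WT libraries.

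Fgfr2, best known as the FGF4 receptor of trophoblast, differed widely between libraries of 1 group. It was 179 and 6.66 CPM in the 2 E5.5 WT libraries, 1.49, 7.61 and 13.5 CPM in E6.5 WT and 15.4, 110.5 and 136 CPM in E7.5 WT. Null epiblasts held 308, 114, 15.2 and 126 CPM at E5.5, 8.67, 16.7 and 211 CPM at E6.5 and 21.4, 18.8 and 32.2 CPM at E7.5. The 5 libraries above 100 CPM at E5.5 and E6.5 (E5.5 WT 1, E5.5 null 1, 2 and 4, and E6.5 null 1) were those with the 5 highest sums of extraembryonic ectoderm markers, 350 to 1097 CPM, whereas the E7.5 WT libraries other than WT 3 reached 92.4 to 136 CPM of Fgfr2 with only 19.1 to 43.5 CPM of those markers. In the annotation used here for lengths Fgfr2 spans 2960900 bases and shares exon sequence with Ctbp2, a gene of the same strand. Its length is therefore less certain than those of the other genes, and its count is uncertain too.

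Fgfr3 was 20.1 and 11.8 CPM in E5.5 WT, 0.209, 0.506 and 7.48 CPM in E6.5 WT and 0.875, 24.8 and 37.0 CPM in E7.5 WT, with WT 3 the lowest and the next at 22.0. In null epiblasts it was 0.0552, 19.7, 17.5 and 18.3 CPM at E5.5, 1.21, 5.67 and 11.4 CPM at E6.5 and 1.70, 0.994 and 6.07 CPM at E7.5. Fgfr4 was 21.8 and 30.4 CPM in E5.5 WT, 0, 0.659 and 14.3 CPM in E6.5 WT and 2.08, 4.15 and 9.24 CPM in E7.5 WT. Its null levels were 39.5, 35.9, 24.0 and 31.8 CPM at E5.5, 0.756, 5.61 and 36.2 CPM at E6.5 and 0.424, 0 and 0.456 CPM at E7.5, the last group lying below all 9 WT libraries.

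Per length of mRNA (CPM per kb of exon, approximate for Fgf17, Fgfr1, Fgfr3, whose annotated version differed, and for Fgfr2), Fgf5 and Fgf8 together made up most of the ligand mRNA before E7.5. Of the summed level of the 6 ligands Fgf5 held 41.0% ± 4.26 (SD, n = 9) in E6.5 WT, 47.7% ± 15.6 (n = 8) in E6.5 null, 49.3% ± 4.69 (n = 3) in E7.5 null and 8.72% ± 4.81 (n = 8) in E7.5 WT without WT 3 (14.3% ± 17.2 with it). Of the summed level of the 4 receptors Fgfr1 held 89.7% ± 7.90 in E6.5 WT, 68.0% ± 18.3 in E6.5 null, 86.9% ± 4.65 in E7.5 null and 71.7% ± 6.54 in E7.5 WT. Without E6.5 null 1 and without E7.5 WT 3 the shares of these groups were 71.5% ± 16.6 (n = 7) and 69.9% ± 3.83 (n = 8). The drop of the Fgfr1 share in E7.5 WT went with a rise of its own level, since Fgfr2 went from 4.57% ± 1.95 to 18.8% ± 4.12. In the EpiSC lines the shares were 54.0% ± 0.464 (null) and 50.9% ± 1.43 (WT) for Fgf5 and 84.3% ± 1.95 and 82.9% ± 0.915 for Fgfr1 (n = 2 each).

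**Figure D2:**
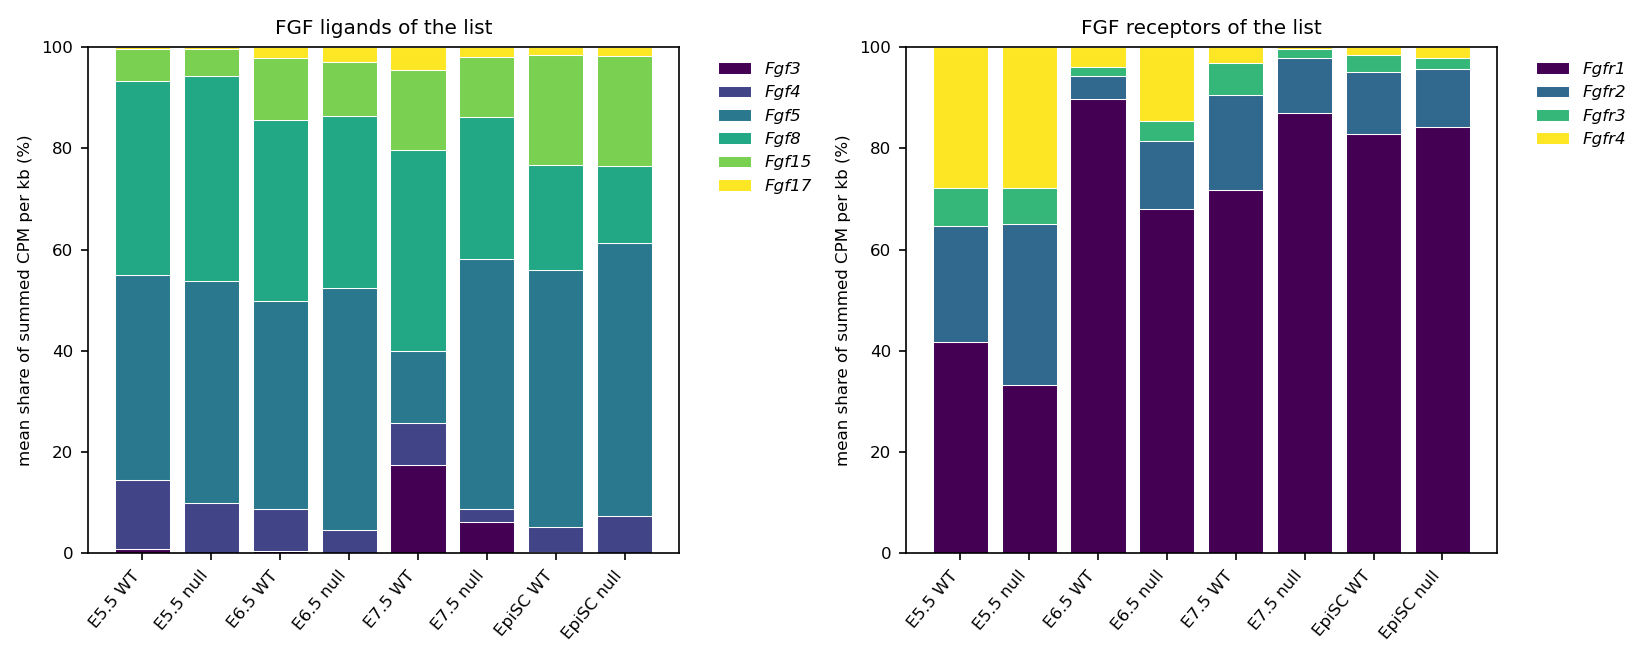
Mean share of each gene in the summed CPM per kb of the 6 ligands (left) and the 4 receptors (right), in percent, for each group of libraries; E5.5 null 1, for which all 6 ligands are listed at 0, enters only the receptor bars. The Fgf5 segment shrinks in E7.5 WT to 14.3% and is 49.3% in E7.5 null.

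The first comparison asked how the 10 genes changed as WT epiblasts developed. From E6.5 to E7.5 most ligand mRNAs fell and most receptor mRNAs rose: 4 genes rose (Fgf3, Fgfr1, Fgfr2 and Fgfr3) and 4 fell (Fgf4, Fgf5, Fgf8 and Fgf15) of 10 tested, where edgeR called 5.74% of 17191 genes higher and 3.09% lower, 8.83% in all. The log2 fold changes (± SE) were 2.89 ± 0.75 for Fgf3 (adjusted p = 0.0081), 1.21 ± 0.14 for Fgfr1 (adjusted p = 1.31e-05), 3.67 ± 0.39 for Fgfr2 (adjusted p = 7.86e-06) and 3.44 ± 0.72 for Fgfr3 (adjusted p = 0.0018). They were -1.99 ± 0.54 for Fgf4, -2.35 ± 0.77 for Fgf5, -1.62 ± 0.30 for Fgf8 and -1.41 ± 0.20 for Fgf15, with adjusted p of 0.0115, 0.0342, 0.000618 and 5.44e-05. Fgf17 (-0.68 ± 0.87) and Fgfr4 (1.09 ± 0.96) did not pass. voom with sample quality weights did not call Fgf4 (-0.53) and called Fgfr4 instead, and the fit of all 35 epiblasts did not call Fgf8. All 8 calls were made without WT 3 too, with Fgf5 at -4.39 ± 0.21 instead of -2.35, but leaving out any other E7.5 WT library ended the Fgf5 call, with adjusted p of 0.053 to 0.0603.

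From E5.5 to E6.5 in WT 1 of 10 genes was called, against 5.15% of 20763 genes: Fgfr2, with -3.51 ± 0.73 (adjusted p = 0.0149). voom with sample quality weights did not call it and called Fgf4, Fgfr3 and Fgfr4 instead. The edgeR value rested on 1 library, since without E5.5 WT 1 (179 CPM) it was 0.25 ± 0.75 (adjusted p = 0.945). Fgf15 was higher at E6.5 by 0.87 ± 0.22 (adjusted p = 0.0251), short of the fold threshold. The groups did not overlap for 3 of the 10 genes, Fgf15, Fgfr3 and Fgfr4, where 16.9% of all genes tested did not with 2 libraries at E5.5. Fgfr3 and Fgfr4 stood at -2.83 ± 0.98 and -3.32 ± 1.66 (adjusted p = 0.0924 and 0.272), and were lower together with the visceral endoderm markers, whose sum was 5248 and 6590 CPM in E5.5 WT and had a median of 157 in E6.5 WT. The part of those cells in the difference was not tested.

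The second comparison, between Stat3 null and WT epiblasts at E7.5, gave the clearest differences. The receptors were lower in the null, Fgfr4 most, and Fgf5, Fgf8 and Fgf15 were higher, but only Fgfr4 passed over all libraries, at -4.19 ± 0.85 (adjusted p = 0.0324, edgeR). That is 1 of 10 genes, where 1.17% of 19680 genes were called, 1.09% lower and 0.0813% higher. The other receptors had -3.03 ± 0.90 for Fgfr3 (adjusted p = 0.0939), -2.05 ± 0.52 for Fgfr2 (adjusted p = 0.0621) and -0.90 ± 0.25 for Fgfr1 (adjusted p = 0.0796). The ligands had 2.35 ± 1.21 for Fgf5, 1.07 ± 0.29 for Fgf15 and 1.01 ± 0.40 for Fgf8, with adjusted p of 0.327, 0.061 and 0.186. Fgf3 (0.07 ± 0.76), Fgf4 (-0.10 ± 0.46) and Fgf17 (0.35 ± 0.82) lay near 0.

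Without E7.5 WT 3, a choice made on these same genes, 7 of 10 genes met the rule for a call, where 5.68% of 19462 genes were called, 1.13% higher and 4.55% lower. Fgf5 was 4.40 ± 0.29, or 113 ± 30.2 CPM in null (SD, n = 3) against 5.42 ± 2.09 in WT (n = 8). Fgf8 was 1.28 ± 0.27 and Fgf15 1.25 ± 0.23. All 4 receptors were lower, with Fgfr1 at -1.005 ± 0.08, Fgfr2 at -2.19 ± 0.17, Fgfr3 at -3.20 ± 0.47 and Fgfr4 at -4.29 ± 0.80. Their adjusted p-values are not given, since the exclusion made them too small. By the spread of the libraries alone, the groups did not overlap for 1 of the 10 genes (Fgfr4), against 3.92% of all genes tested. For 5 more (Fgfr1, Fgfr2 and Fgfr3 below, Fgf5 and Fgf15 above) WT 3 was the only WT library within or beyond the null range, so that leaving it out parts the groups by construction; the share over all genes was then 14.0%. Tests that weigh libraries or estimate spread otherwise called more over all 12 libraries. DESeq2 called 5 of the 10 genes (Fgf5, Fgf15, Fgfr2, Fgfr3 and Fgfr4) and 3.50% of all genes. voom with sample quality weights called those and Fgf8, and 6.09% of all genes. Such tests can give an outlying library less weight, which was not tested for WT 3, so their calls are no independent support either. The call of Fgfr4 with edgeR was kept in 3 of the 12 fits that left out 1 library (E7.5 WT 2, 3 or 9). It was not made with all 35 epiblast libraries in 1 fit or with the replicate number as a block. Exact permutation tests of the mean log2 CPM, two-sided and unadjusted, gave p = 0.0091 for Fgfr4, which is the smallest that 3 against 9 libraries allow, 0.0182 for Fgf15 and 0.0364 for each of Fgf5, Fgfr1, Fgfr2 and Fgfr3.

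**Figure D3:**
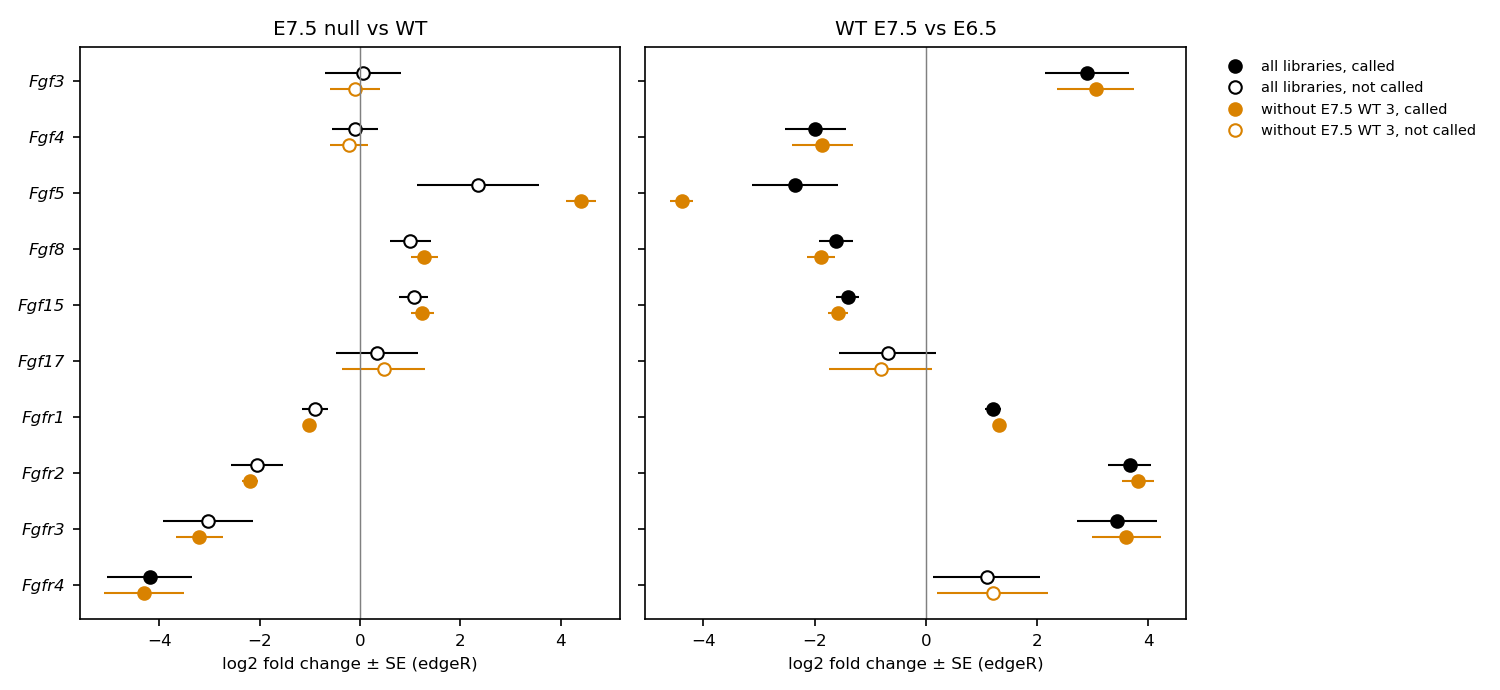
Log2 fold change with its SE from edgeR (horizontal axis) for each gene, in E7.5 null against WT epiblasts (left) and in WT epiblasts from E6.5 to E7.5 (right), over all libraries (black) and without E7.5 WT 3 (orange); filled points were called. Both panels use the E7.5 WT libraries. Fgf5 moves from 2.35 to 4.40 on the left and from -2.35 to -4.39 on the right when WT 3 is left out.

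Both comparisons share the E7.5 WT libraries, so each E7.5 null epiblast was also placed between the WT stages without them being counted as separate evidence. On a scale where the mean log2 CPM of E6.5 WT is 0 and that of E7.5 WT without WT 3 is 1, E7.5 null 1, 2 and 3 lay at -0.03, -0.06 and 0.12 for Fgf5. For Fgfr1 they lay at 0.14, 0.30 and 0.21, for Fgf15 at 0.09, 0.24 and 0.30, and for Fgfr3 at 0.12, -0.04 and 0.53. Fgfr2 stood further on, at 0.40, 0.35 and 0.55, and Fgf8 was spread from -0.02 to 0.70. Fgf4, which fell between the WT stages, was at 1.60, 1.86 and 0.47, so that null 1 and 2 were past the WT mean of E7.5. Fgf3 was at 0.42, 0.80 and 1.27, so that 1 null epiblast was past the WT mean of E7.5 for this streak ligand. That library, null 3, also held the most streak and mesoderm markers of the 35, 803 CPM, against 166 to 442 CPM in E7.5 WT. That sum was already 447 to 660 CPM in E5.5 null, so a high sum is not particular to stages with a streak. Tested directly, E7.5 null against E6.5 WT gave 0 of 10 genes called by edgeR, where 0.162% of 19749 genes were called, 3 of the 10 having an unadjusted p under 0.05. These were Fgf3 (2.93 ± 1.03), Fgfr1 (0.29 ± 0.09) and Fgfr2 (1.59 ± 0.40), with adjusted p of 0.372, 0.286 and 0.134. DESeq2 and voom each called Fgfr2 alone. A p that misses the threshold does not show that the 2 groups are alike.

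**Figure D4:**
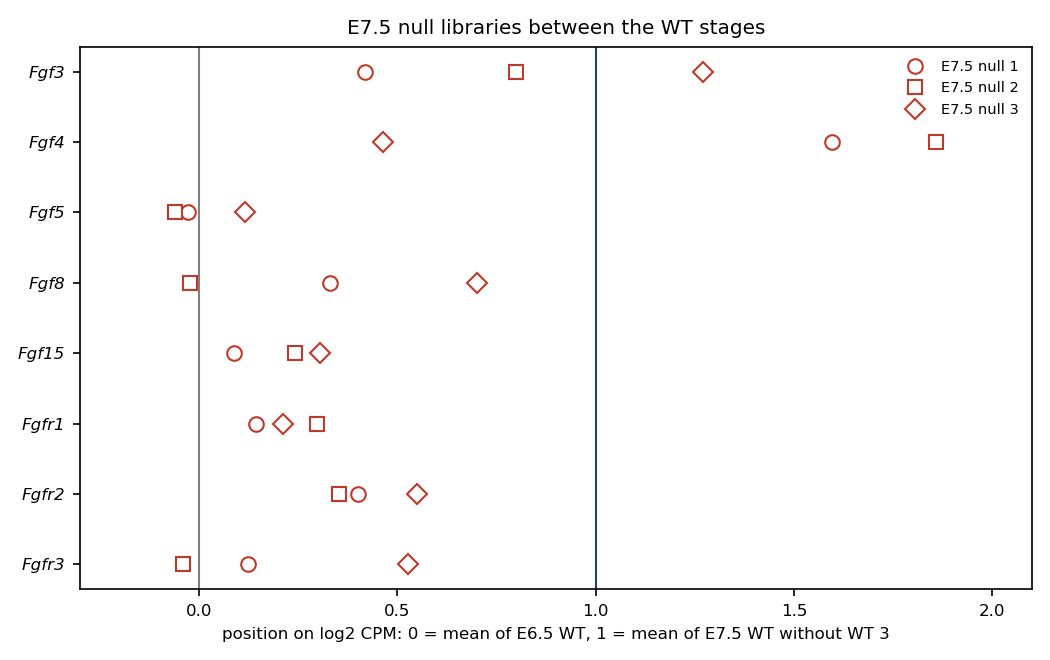
Position of each E7.5 null library (symbols) between the mean of E6.5 WT (0, grey line) and the mean of E7.5 WT without WT 3 (1, blue line) on the log2 CPM scale, for the 8 genes called between those WT stages. For Fgf5 the 3 libraries lie between -0.06 and 0.12, and for Fgf3 between 0.42 and 1.27; for Fgf4, which changed least between the stages, values above 1 are levels below the E7.5 WT mean.

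At E6.5, 1 day earlier, no gene of the 10 was called between 8 null and 9 WT epiblasts, and 0% of 17095 genes were called by edgeR, with 1414 at an unadjusted p under 0.05 (3 of the 10), 28 called by DESeq2 (0 of the 10) and 92 by voom with sample quality weights (Fgfr3). Fgf3 and Fgf4 had the lowest fold changes, at -4.83 ± 1.45 (adjusted p = 0.403) and -1.54 ± 0.57 (adjusted p = 0.461), and Fgfr2 the highest, at 2.32 ± 0.63 (adjusted p = 0.358). The value of Fgf3 rested on the 12 counts of null 7: without it all null libraries were at 0 and the fitted value, -8.96, depends on how zeros are handled. Fgf3 passed the filter on low counts largely through WT libraries, and in only 8 of the 17 fits that left out 1 library. Without null 1 Fgfr2 was 0.92 ± 0.32 (adjusted p = 0.567), below Fgfr3 (1.50 ± 0.69) and Fgfr4 (2.25 ± 1.14). The exact permutation test of single genes, unadjusted over 30 such tests, gave p = 0.0021 for Fgf3, 0.0023 for Fgfr2, 0.0202 for Fgfr3 and 0.02 for Fgfr4. For Fgfr2 the difference on the log2 CPM scale was 1.51 over all libraries and 1.03 without null 1 (exact p = 0.0049). The libraries of this stage fall into 2 depth groups, 11 with up to 36540246 counts and 6 with 43606327 or more. In the same exact permutation test the null minus WT difference of Fgf3 was -3.78 in the 11 (p = 0.0087) and -2.75 in the 6 (p = 0.4, where the smallest possible is 0.1). For Fgf4 it was 0.20 in the 11 and -3.53 in the 6, so its difference was not of 1 sign within depth groups. By the exact permutation test Fgfr2 had 0.58 in the 11 (exact p = 0.0909) and 3.19 in the 6 (exact p = 0.1, the smallest possible). The 6 include null 1. The Fgfr2 difference was thus positive in both depth groups, but smaller in the 11 than over all libraries. Fgfr3 and Fgfr4 had 2.84 and 3.84 in the 11 (exact p = 0.013 and 0.0087) and 0.16 and 1.96 in the 6 (exact p = 1 and 0.6). The visceral endoderm markers had a median of 776 CPM in E6.5 null and 157 in E6.5 WT.

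At E5.5 no gene of the 10 was called, and edgeR called 0% of 18690 genes, with 467 at an unadjusted p under 0.05 (0 of the 10), 0 called by voom and 32 called by DESeq2 (0 of the 10). With 4 against 2 libraries no permutation p can go below 0.133. Without null 1 the differences in log2 CPM were -0.75 for Fgf4, -0.12 for Fgf5, -0.15 for Fgf8 and -0.53 for Fgf15, and the groups did not overlap for 2 of the 10 genes (Fgf3 and Fgf15, the null libraries lower), where 20.1% of all genes tested did not. In the EpiSC lines 0 of 10 genes were called, where edgeR called 0.106% of 20736 genes, DESeq2 called 214 genes and voom 16, none of the 10, and 1885 genes (1 of the 10) had an unadjusted p under 0.05. The 2 null lines were below both WT lines for Fgfr1 (175.5 and 186 against 196 and 209 CPM) and Fgfr3 (3.36 and 3.57 against 6.61 and 5.36 CPM), at -0.17 ± 0.08 and -0.79 ± 0.21 (adjusted p = 0.61 and 0.274). These were the 2 of 10 genes whose groups did not overlap, where with 2 lines against 2 the groups did not overlap for 39.5% of all genes tested. Fgf8 was 15.7 and 14.0 CPM in null and 14.2 and 31.9 in WT, and was called, at -1.11 ± 0.13, only when the WT line 13 was left out.

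The steps between stages were also tested within null epiblasts, with fewer libraries than in WT at E6.5 and E7.5. From E5.5 to E6.5 none of the 9 genes tested was called by edgeR, where 1.98% of 18352 genes were, none had an unadjusted p under 0.05, DESeq2 called none and voom called Fgfr2 and Fgfr4. Fgfr2 was called by edgeR when E5.5 null 1 and E6.5 null 1 were left out. Fgf3 was too low to be tested. From E6.5 to E7.5 again 0 of 10 were called, where 0.103% of 19460 genes were, 3 of the 10 having an unadjusted p under 0.05. Those were Fgf3 (7.80 ± 1.55, adjusted p = 0.0866, a value that depends on how the 7 libraries at 0 are handled), Fgfr1 (0.44 ± 0.13, adjusted p = 0.315) and Fgfr4 (-5.19 ± 1.50, adjusted p = 0.272), and their groups did not overlap, as was so for 5.89% of all genes tested. DESeq2 called Fgfr4 and voom Fgf3. Whether the null minus WT difference at E7.5 differed from that at E6.5 was tested as an interaction: 0 of 10 genes were called by edgeR, where 0.245% of 24126 genes were, 6 of the 10 having an unadjusted p under 0.05. The lowest adjusted p was 0.097, for Fgfr2 (-4.38 ± 1.23), and Fgfr3 and Fgfr4 had -4.38 ± 1.38 and -6.28 ± 1.92. DESeq2 called Fgfr2, Fgfr3 and Fgfr4 in this test, and voom those, Fgf5 and Fgf15. Without E7.5 WT 3, edgeR called Fgf5 (4.41 ± 0.83) and Fgfr2 (-4.53 ± 1.20), where 1.37% of 24008 genes were called, and without E5.5 null 1 and E6.5 null 1 it called none of the 10.

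Several FGF genes moved with markers of the tissues that surround the epiblast. In the 9 E6.5 WT libraries the log2 CPM of Fgfr3 and Fgfr4 had a Pearson r of 0.93 and 0.79 with the visceral endoderm marker sum, and in the 8 E6.5 null libraries 0.84 and 0.87, as a description over libraries that share depth and tissue content. The other receptors ran the opposite way, Fgfr1 with -0.53 in WT and -0.85 in null and Fgfr2 with -0.42 and -0.51. Among ligands in E6.5 WT, Fgf4 had r = 0.88, Fgf17 -0.88 and Fgf8 -0.81, and in E6.5 null 0.05, -0.57 and 0.18. Among E7.5 WT libraries, Fgfr4 and that sum were lowest in WT 3 (2.08 and 384 CPM) and highest in WT 6 and WT 7 (9.24 and 8.88, with 3615 and 4027 CPM). All 3 E7.5 null libraries had fewer of these markers (35.7 to 239 CPM) and less Fgfr4 than any E7.5 WT library. For Fgfr2 in E7.5 WT against null, the extraembryonic ectoderm sum was 5.46 to 43.5 against 7.63 to 14.8 CPM, with 4 to 8 of the 10 markers counted in a WT library and 5 to 9 in a null library. The sum was 19.1 to 43.5 CPM in the WT libraries other than WT 3, above all 3 null libraries. Elf5, 1 of the 10 markers, was at 0 in 7 of 9 WT and 2 of 3 null libraries. Within the 9 E7.5 WT libraries Fgfr2 had r = 0.94 with the extraembryonic ectoderm sum, WT 3 being the lowest in both. It had r = 0.94 with the neuroectoderm sum as well, for which WT 3 was also the lowest. The part of either tissue in the differences of FGF genes was not tested. Fgf5 and Fgfr1 ran opposite to each other, with r = -0.90 over the 34 epiblast libraries without E5.5 null 1, the lowest of any pair of the 10 genes. Over all 35 it was -0.65.

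**Figure D5:**
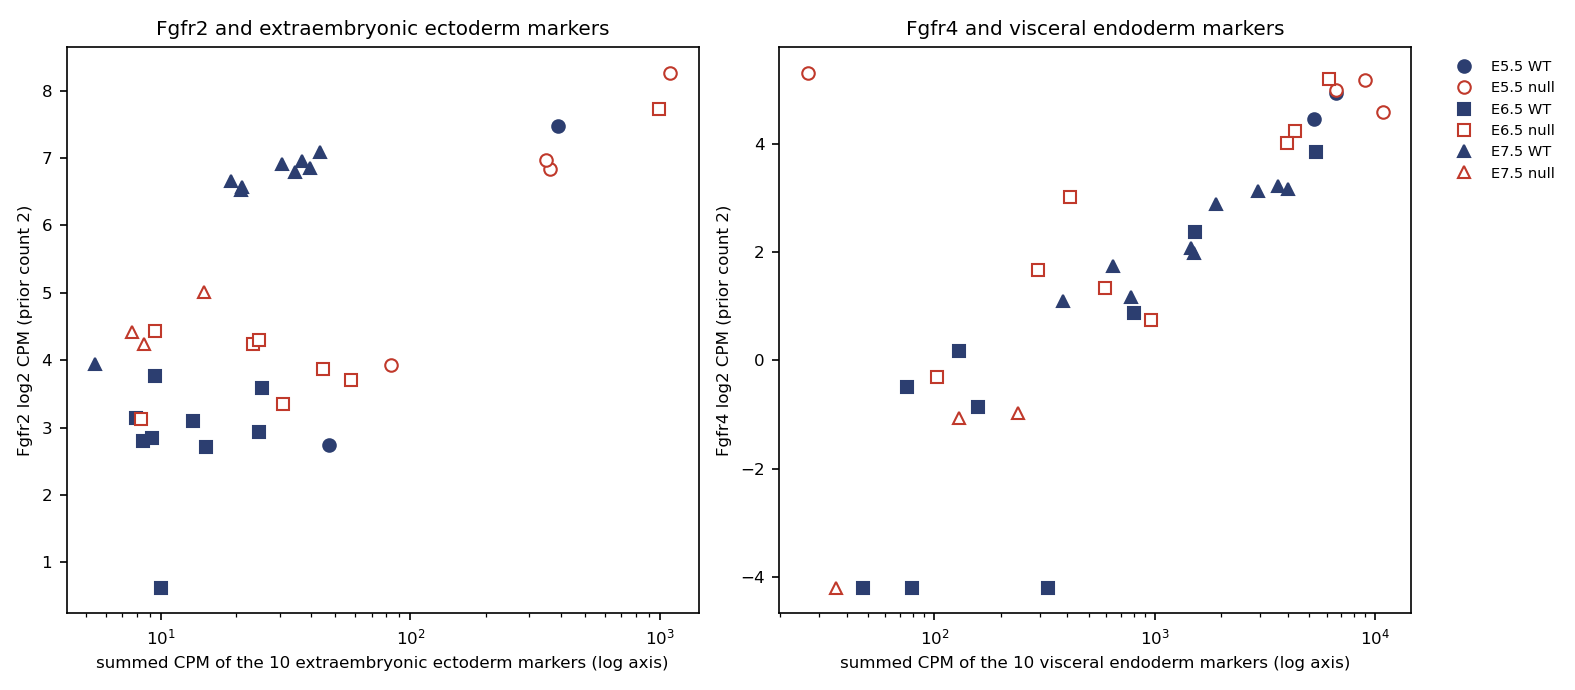
Level of Fgfr2 against the summed level of 10 extraembryonic ectoderm markers (left) and of Fgfr4 against 10 visceral endoderm markers (right) in the 35 epiblast libraries, 1 point per library; the horizontal axis is summed CPM on a log scale and the vertical axis log2 CPM. Fgfr2 is high either with 350 to 1097 CPM of markers (E5.5 and E6.5) or in 8 of 9 E7.5 WT libraries with 19.1 to 43.5, and E5.5 null 1, at the top left of the Fgfr4 panel, has 39.5 CPM of Fgfr4 with 26.7 CPM of markers.

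The rest of the pathway was followed in lists of 16 other ligands, 11 coreceptors and modulators, 20 components of signal transduction and 13 feedback or target genes. Between E7.5 null and WT, 54 of these 60 genes could be tested, 1 rose and 3 fell, where 1.17% of all genes were called. Dusp6, the phosphatase that switches off ERK, was higher in null by 1.20 ± 0.27 (adjusted p = 0.0442). Flrt3, a membrane partner of FGF receptors (-1.89 ± 0.31), Sdc4, a heparan sulfate carrier (-1.18 ± 0.27), and Gab1, an adaptor downstream of FRS2 (-1.35 ± 0.27), were lower, with adjusted p of 0.0183, 0.0417 and 0.033. These calls depended on the fit: 11 genes were called without E7.5 WT 3 (against 5.68% of all genes) and 0 to 3 without any other library, 11 by DESeq2, 12 by voom, 1 (Dusp6) in the fit of all 35 epiblasts and 0 with the replicate block. Flrt3, Sdc4, Gab1 and Dusp6 were among those called by DESeq2, by voom and without WT 3. The median log2 fold change of the 13 feedback genes was 1.06, that of the 20 transduction genes -0.01, and that of all genes tested -0.02.

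In WT from E6.5 to E7.5, 48 of the 60 were tested, 5 rose and 5 fell, where 8.83% of all genes were called. Without WT 3 12 were called. The feedback list had a median of -0.84, against 0.01 over all genes, with 5 of its 13 genes down and 1 up. Those with the smallest p were Dusp6 (-1.20 ± 0.17), Il17rd, a feedback inhibitor also known as Sef (-1.47 ± 0.21), the ETS factor Etv5 (-1.67 ± 0.25) and the ERK inhibitor Spry4 (-1.62 ± 0.27). Spred1, another inhibitor of the cascade, rose (1.06 ± 0.15), as did Rps6ka3, a kinase activated by ERK (1.06 ± 0.17), and the membrane proteins Flrt2 (1.79 ± 0.47) and Flrt3 (1.71 ± 0.52). From E5.5 to E6.5 in WT 3 rose, Flrt1 (1.97 ± 0.56), Spry2 (1.02 ± 0.19) and Etv1 (1.35 ± 0.27), and 3 fell, the ligand Fgf10 (-3.17 ± 0.81), Sdc4 (-2.89 ± 0.48) and Fosl1 (-2.83 ± 0.52), of 52 tested and against 5.15% of all genes. None of the 52 was called without E5.5 WT 1, and 12 were without E6.5 WT 3. In null epiblasts Sdc1, a syndecan, was the single gene called over that step (1.33 ± 0.27), and none was called in null between E6.5 and E7.5, where 12 had an unadjusted p under 0.05 and DESeq2 and voom called 1 each.

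The interaction of genotype and stage called 3 of the 55 genes tested, all feedback inhibitors of the cascade, where 0.245% of all genes were called: Dusp6 at 1.69 ± 0.27 (adjusted p = 0.00466), Spry2 at 1.68 ± 0.32 (adjusted p = 0.0232) and Spry4 at 1.83 ± 0.39 (adjusted p = 0.0361). In null against WT they stood at -0.50 ± 0.13, -0.72 ± 0.17 and -0.67 ± 0.15 at E6.5 (not called) and at 1.20 ± 0.27, 0.98 ± 0.27 and 1.18 ± 0.41 at E7.5, of which only Dusp6 was called. Their mean was thus below WT at E6.5 and above it at E7.5. DESeq2 and voom called these 3 as well, among 11 and 13 genes of the lists. Without E7.5 WT 3 they stood at 1.86, 1.84 and 2.12 and were called with 3 other genes, against 1.37% of all genes, and without E5.5 null 1 and E6.5 null 1 they were called with Etv5. No gene of the lists was called at E5.5, at E6.5, in the EpiSC lines or when E7.5 null was set against WT of E6.5, where 5, 12, 13 and 10 of them had an unadjusted p under 0.05. DESeq2 called 0, 0, 1 and 1, and voom 0, 0, 0 and 1.

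Genes whose levels ran most like those of each FGF gene were taken from 18500 genes over the 34 epiblast libraries without E5.5 null 1, by Pearson correlation of log2 CPM. The libraries share stage, depth and tissue content, so r is a description. For Fgf5 they were Stx3 (0.94), Tdgf1, which encodes the NODAL coreceptor Cripto (0.94), and Skil (0.94). For Fgf8 they were Sgk1 (0.84), Il17rd (0.84) and the organiser gene Gsc (0.82), for Fgf3 Col13a1 (0.96), Sh3pxd2a (0.85) and the streak gene Wnt3a (0.84), and for Fgf15 Rbpms (0.88), Ubr7 (0.86) and Sertad4 (0.85). Fgf4 went with Platr20 (0.79), Stag3 (0.78) and Ftl2-ps (0.78), and Fgf17 with Cr2 (0.81), Ddx24 (0.78) and Zfp184 (0.78). Among receptors, Fgfr1 went with Notch1 (0.93), H1fx (0.92) and Foxd4 (0.92), Fgfr2 with Cald1 (0.94), Slc38a4 (0.92) and Capn6 (0.91), Fgfr3 with the ephrin Efnb1 (0.93), Bicc1 (0.92) and Plpp3 (0.90), and Fgfr4 with Apom (0.90), Prkaa2 (0.90) and Cubn (0.90), of which Apom encodes an apolipoprotein and Cubn is one of the visceral endoderm markers. With E5.5 null 1 included, the values for Fgf4 fell to between 0.38 and 0.53. Those for Fgf5 fell to between 0.74 and 0.91, for Fgf15 to between 0.67 and 0.78 and for Fgfr4 to between 0.67 and 0.85. Some values of other genes rose, as all those for Fgf3 did.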

How the data were processed

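Bulk RNA-seq counts per gene were read for 35 single epiblasts and 4 EpiSC lines. The deposited counts were made by the authors, who trimmed reads with Trim Galore, aligned them with HISAT2 to GRCm38 (mm10) and counted genes with StringTie. Annotation release and strand setting are not given in the sources used here, and StringTie derives counts from transcript coverage, so a 0 is the value it gave and need not mean that no read was present. Exon lengths and overlaps were taken from GENCODE vM21.

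Genes were filtered with filterByExpr, scaled with TMM and tested with the quasi-likelihood test of edgeR 4.0.16 (R 4.3.3, limma 3.58.1), fitted on the whole table and on the libraries of each comparison only. Calls needed an adjusted p under 0.05 and a log2 fold change over 1 in size. Single genes were also compared by two-sided exact permutation tests of log2 CPM with a prior count of 2 (30 tests, unadjusted; Python 3.11.15, scipy 1.17.1, numpy 2.4.6, pandas 2.3.3, matplotlib 3.10.9). Alternatives were DESeq2 1.42.0, RLE factors, no filter, removal of genes over 1% of counts, voom with sample quality weights, 1 fit of all epiblasts, depth group, a replicate block and leaving out each library. The interaction was refitted without E7.5 WT 3, an alternative chosen after seeing the data. The fits were tested on simulated data.

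The FGF genes, the pathway lists and the marker lists (epiblast, extraembryonic ectoderm, visceral endoderm, maternal blood and decidua, streak and mesoderm, neuroectoderm) were chosen with earlier results of these data known. Pathway genes are named where called, at most 4 in each direction by smallest p, and the 3 genes most alike are named for each FGF gene. Same-numbered null and WT epiblasts had correlations of deviations of -0.19 to 0.20, so the numbers were not taken to pair them. Totals ranged from 22941210 to 127583699 counts, and 3 counts corresponded to 0.0235 to 0.131 CPM, which covers counting error only. Nothing says that the epiblasts of a group came from separate litters, so p-values measure the spread between these libraries.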

Additional observations from a re-analysis of the deposited data

Results flagged for a closer look

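Of 40 combinations of an FGF gene and a group of 4 to 9 libraries, 16 held 1 library whose gap to its nearest neighbour exceeded the 95% limit of Dixon's test, and chance flags about 1 in 20 groups. E7.5 WT 3 accounted for 5, with Fgf3 at 0.463 CPM, Fgf5 at 158 CPM, Fgfr1 at 137 CPM, Fgfr2 at 15.4 CPM and Fgfr3 at 0.875 CPM. E5.5 null 1, the library with almost no Pou5f1, accounted for another 5, with Fgf4, Fgf5, Fgf8 and Fgf15 each at 0 CPM and Fgfr3 at 0.0552 CPM. E6.5 null 1 stood apart for Fgf5 at 20.1 CPM and Fgfr2 at 211 CPM. The others were Fgf3 in E5.5 null 4 at 1.10 CPM and in E6.5 null 7 at 0.419 CPM, each the single library of its group above 0, Fgf17 in E7.5 WT 9 at 0 CPM and Fgfr2 in E6.5 WT 1 at 1.49 CPM.

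The null minus WT difference was not the same at E7.5 as at E6.5 for the feedback inhibitors Spry2 (log2 interaction 1.68), Spry4 (1.83) and Dusp6 (1.69), by the interaction test of edgeR with adjusted p of 0.0232, 0.0361 and 0.00466.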

How the results depend on the processing

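With voom with sample quality weights, the number of called FGF genes was 1 (0 as reported) for E6.5 null against WT, 6 (1 as reported) for E7.5 null against WT, 3 (1 as reported) for WT E6.5 against E5.5, 2 (0 as reported) for null E6.5 against E5.5, 1 (0 as reported) for null E7.5 against E6.5, 1 (0 as reported) for E7.5 null against E6.5 WT and 5 (0 as reported) for the interaction of genotype and stage. With DESeq2, the number of called FGF genes was 5 (1 as reported) for E7.5 null against WT, 1 (0 as reported) for null E7.5 against E6.5, 1 (0 as reported) for E7.5 null against E6.5 WT and 3 (0 as reported) for the interaction of genotype and stage. With 1 fit of all 35 epiblasts, the number of called FGF genes was 0 (1 as reported) for E7.5 null against WT and 1 (0 as reported) for null E7.5 against E6.5. With the replicate block, the number of called FGF genes was 0 (1 as reported) for E7.5 null against WT. With leaving out E5.5 null 1 and E6.5 null 1, the number of called FGF genes was 1 (0 as reported) for null E6.5 against E5.5. With voom with sample quality weights, the number of called pathway genes was 12 (4 as reported) for E7.5 null against WT, 10 (6 as reported) for WT E6.5 against E5.5, 6 (1 as reported) for null E6.5 against E5.5, 1 (0 as reported) for null E7.5 against E6.5, 1 (0 as reported) for E7.5 null against E6.5 WT and 13 (3 as reported) for the interaction of genotype and stage. With DESeq2, the number of called pathway genes was 11 (4 as reported) for E7.5 null against WT, 1 (0 as reported) for EpiSC null against WT, 12 (6 as reported) for WT E6.5 against E5.5, 2 (1 as reported) for null E6.5 against E5.5, 1 (0 as reported) for null E7.5 against E6.5, 1 (0 as reported) for E7.5 null against E6.5 WT and 11 (3 as reported) for the interaction of genotype and stage. With 1 fit of all 35 epiblasts, the number of called pathway genes was 1 (4 as reported) for E7.5 null against WT and 4 (1 as reported) for null E6.5 against E5.5. With the replicate block, the number of called pathway genes was 0 (4 as reported) for E7.5 null against WT. With leaving out E5.5 null 1 and E6.5 null 1, the number of called pathway genes was 4 (1 as reported) for null E6.5 against E5.5. With no filter on low counts, the number of called pathway genes was 3 (6 as reported) for WT E6.5 against E5.5. Leaving out 1 library at a time gave 0 to 1 FGF genes for E7.5 null against E6.5 WT, 0 to 7 FGF genes for E7.5 null against WT, 0 to 1 FGF genes for EpiSC null against WT, 0 to 2 FGF genes for WT E6.5 against E5.5, 7 to 8 FGF genes for WT E7.5 against E6.5 and 0 to 1 FGF genes for null E7.5 against E6.5. Leaving out 1 library at a time gave 0 to 11 pathway genes for E7.5 null against WT, 0 to 2 pathway genes for EpiSC null against WT, 0 to 12 pathway genes for WT E6.5 against E5.5, 10 to 12 pathway genes for WT E7.5 against E6.5 and 0 to 2 pathway genes for null E6.5 against E5.5. For the interaction of genotype and stage E7.5 WT 3 alone was left out, a setting chosen after seeing the data, which gave 2 FGF genes and 6 pathway genes (0 and 3 as reported). Of the 30 permutation tests, 5 to 12 had p under 0.05 when 1 epiblast library at a time was left out, where 10 were reported. Of 682 fold changes of FGF genes under alternatives, 618 kept direction and call, 5 lost a call, 30 gained one and 29 turned sign, none of the 29 past the threshold. Sign turned with voom with sample quality weights for Fgf3 (-0.94, E7.5 null against WT), Fgf4 (0.0334, E6.5 null against WT), Fgf4 (-0.50, the interaction of genotype and stage), Fgf5 (0.00012, E6.5 null against WT), Fgf5 (0.0175, EpiSC null against WT), Fgf5 (0.0387, WT E6.5 against E5.5), Fgf5 (0.0226, E7.5 null against E6.5 WT), Fgf8 (0.11, WT E6.5 against E5.5), Fgf17 (0.69, E5.5 null against WT), Fgf17 (-0.59, E6.5 null against WT), Fgf17 (0.30, null E7.5 against E6.5), Fgf17 (1.48, the interaction of genotype and stage) and Fgfr2 (0.49, null E7.5 against E6.5). Sign turned with the E6.5 libraries under 40000000 counts for Fgf4 (0.0284, E6.5 null against WT), Fgf5 (0.0845, E6.5 null against WT) and Fgf17 (-0.26, E6.5 null against WT). Sign turned with leaving out E5.5 null 1 and E6.5 null 1 for Fgf5 (0.13, E6.5 null against WT), Fgf5 (-0.13, null E7.5 against E6.5), Fgf8 (0.12, E6.5 null against WT), Fgf15 (-0.0473, null E7.5 against E6.5), Fgf17 (0.0144, E5.5 null against WT), Fgfr2 (-0.13, E5.5 null against WT), Fgfr2 (0.68, null E7.5 against E6.5) and Fgfr3 (0.22, E5.5 null against WT). Sign turned with 1 fit of all 35 epiblasts for Fgf5 (0.00701, E7.5 null against E6.5 WT). Sign turned with depth group as a term for Fgf8 (0.00972, E6.5 null against WT). Sign turned with those over 40000000 for Fgf8 (0.89, E6.5 null against WT). Sign turned with the replicate block for Fgfr1 (0.14, E5.5 null against WT). Sign turned with DESeq2 for Fgfr2 (0.62, null E7.5 against E6.5). Leaving out 1 library at a time, the fold change crossed 0 for Fgf17 (-1.997 to 6.90, E5.5 null against WT), Fgfr1 (-0.31 to 0.16, E5.5 null against WT), Fgfr2 (-0.33 to 4.43, E5.5 null against WT), Fgfr3 (-0.53 to 0.26, E5.5 null against WT), Fgf17 (-0.30 to 0.75, E6.5 null against WT), Fgf5 (-0.0849 to 0.13, E6.5 null against WT), Fgf8 (-0.57 to 0.12, E6.5 null against WT), Fgf17 (-1.21 to 0.0345, E7.5 null against E6.5 WT), Fgf5 (-0.17 to 0.20, E7.5 null against E6.5 WT), Fgfr3 (-0.72 to 0.91, E7.5 null against E6.5 WT), Fgf17 (-0.49 to 0.74, E7.5 null against WT), Fgf3 (-1.22 to 0.55, E7.5 null against WT), Fgf4 (-0.83 to 0.21, E7.5 null against WT), Fgf15 (-0.33 to 0.25, EpiSC null against WT), Fgf17 (-0.14 to 0.40, EpiSC null against WT), Fgf4 (-0.000792 to 0.88, EpiSC null against WT), Fgf5 (-0.26 to 0.29, EpiSC null against WT), Fgf8 (-1.11 to 0.065, EpiSC null against WT), Fgfr2 (-0.62 to 0.0109, EpiSC null against WT), Fgfr4 (-0.0379 to 0.56, EpiSC null against WT), Fgf3 (-1.10 to 0.0278, WT E6.5 against E5.5), Fgf5 (-0.29 to 0.19, WT E6.5 against E5.5), Fgfr2 (-4.49 to 0.25, WT E6.5 against E5.5), Fgf8 (-0.12 to 0.96, null E6.5 against E5.5), Fgf15 (-0.0473 to 0.21, null E7.5 against E6.5), Fgf5 (-0.13 to 0.23, null E7.5 against E6.5) and Fgfr2 (-0.98 to 0.68, null E7.5 against E6.5). The difference in mean log2 CPM turned sign without E5.5 null 1 and E6.5 null 1 for Fgf17 (0.38) and Fgfr3 (0.26) at E5.5 and Fgf5 (0.13) at E6.5, and in the E6.5 libraries under 40000000 counts for Fgf4 (0.20), Fgf5 (0.0812) and Fgf17 (-0.72). RLE size factors, no filter and removal of genes over 1% of counts turned no sign. The cause was not tested.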
